A study of Rattus norvegicus with 6 samples.

Results

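Nr4a2, Nr4a3, Crem and Egr4 encode nuclear factors whose transcripts are known to be switched on rapidly by outside signals. They were taken by platform gene symbol, with earlier results of these data known, from an array of 1185 probes that names 1103 genes, and each of the 4 genes had 1 probe (RA0526 for Nr4a2, RA1300 for Nr4a3, RA0694 for Crem and RA1229 for Egr4). The array was hybridised with total RNA of the whole heart from 3 rats that underwent cardiopulmonary bypass (CPB, a pump and oxygenator in place of heart and lungs) and 3 sham-operated rats, 1 array per rat. All samples are Rattus norvegicus. The labels state no strain, age, sex, anaesthesia, length of bypass or time of sampling, and nothing in them says how or when the animals were processed together. In whole-heart RNA, fewer cells of a type and less RNA per cell cannot be told apart.

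Nr4a2 (also called Nurr1) and Nr4a3 belong to the NR4A orphan nuclear receptors, which bind DNA without a known natural ligand and whose activity is set largely by how much of them a cell makes. Crem (cAMP responsive element modulator) encodes activators and repressors that bind cAMP response elements, and an internal promoter of the gene gives the short inducible repressor ICER, which turns cAMP signalling off again. Egr4 is a zinc finger factor of the early growth response family. In heart muscle, catecholamines raise cAMP through beta-adrenergic receptors, cAMP activates protein kinase A, and the kinase phosphorylates CREB, which acts at cAMP response elements.

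Because CREB acts at the cAMP response element, this sequence was searched in the RefSeq start windows (build GRCr8, 250 bases before to 50 bases after an annotated start). Of the 4 genes, 3 had an entry: Nr4a2 and Egr4 with 1 start each and Crem with 3 starts, numbered here along the gene. The full element TGACGTCA, which reads the same on both strands, was found once at Crem start 2 and at 2 places around Crem start 3, and in none of the other 3 windows. It occurred in 1.83% of all 33469 windows. The core TGACG, searched on both strands and counted also inside the full element, was found in all 5 windows and in 21.2% of all windows. The stretches below lie upstream of the start, read 5′ to 3′ on the gene's strand, with the element or its core in capitals.
Crem, start 2, chr17:58984715-58984774, plus strand: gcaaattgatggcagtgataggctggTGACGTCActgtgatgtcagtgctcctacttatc
Crem, start 3, chr17:58985429-58985488, plus strand: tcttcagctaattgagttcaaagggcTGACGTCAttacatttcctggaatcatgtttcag
Egr4, chr4:119607900-119608019, minus strand: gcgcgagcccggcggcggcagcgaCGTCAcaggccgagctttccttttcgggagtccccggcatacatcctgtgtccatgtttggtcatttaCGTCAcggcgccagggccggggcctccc
Nr4a2, chr3:62104888-62104947, minus strand: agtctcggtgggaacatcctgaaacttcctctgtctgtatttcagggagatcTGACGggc
In the windows of Crem starts 2 and 3 the upstream element ended 49 and 28 bases before the start. The other element of start 3 lay inside the transcript, 40 to 47 bases from the start. Egr4 held 2 cores on the opposite strand and Nr4a2 held 1 core ending 4 bases before its start. The NR4A monomer site AAAGGTCA and the EGR site GCGGGGGCG, searched on both strands, were in 0 of the 5 windows (1.43% and 2.73% of all windows). A match describes letters only, and the arrays do not say which Crem start was in use.

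**Figure D1:**
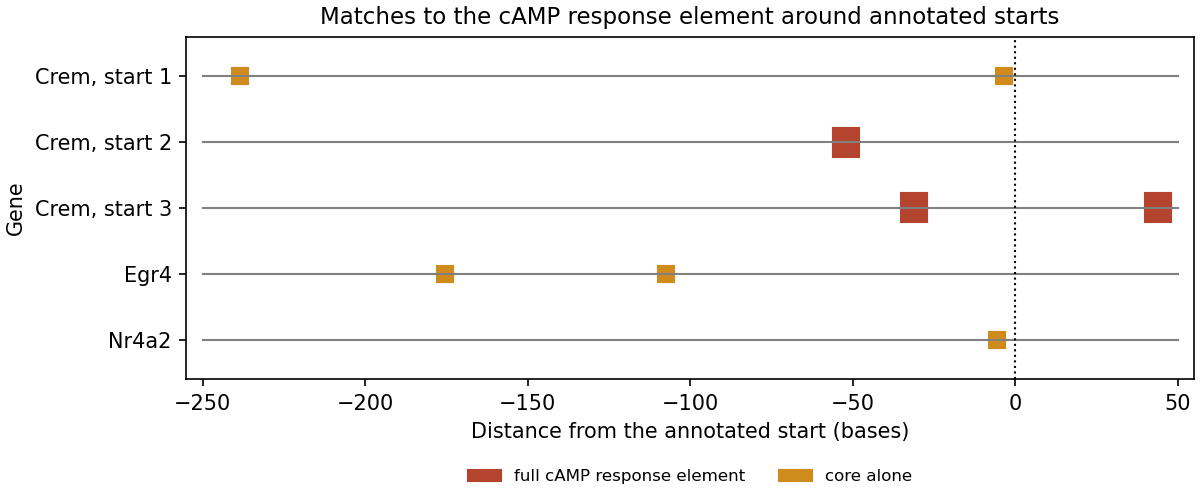
Matches to the cAMP response element in the RefSeq start windows of Crem (3 starts), Egr4 and Nr4a2. The horizontal axis is the distance from the annotated start in bases, tall red boxes are the full element and short orange boxes the core alone. Full elements appear only in the windows of Crem starts 2 and 3.

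Each array listed no value under a lowest level of its own, and values above it rose in equal steps. The share of probes at the lowest level ran from 10.7% to 47.3% over the 6 arrays, and 498 probes lay above it on all 6. Both arrays numbered 3 stood apart in the share of probes at the lowest level, 47.3% (CPB) and 43.3% (sham). Their steps were also the widest (318 and 360 on the linear scale), with sham replicate 1 close behind (312). Heart tissue was visible in the cardiomyocyte markers: 7 of 20 were on the array (among them Myh6, Tnnt2, Tnni3 and Pln) and all 7 were measured above the lowest level on every array. After quantile normalization, CPB and sham values did not overlap for 2 of these 7 (Tnni3 higher and Pln lower after CPB). The same held for 1 of 2 fibroblast markers (Sparc) and 1 of 2 neutrophil and monocyte markers (Lyc2), both lower. It also held for 1 of 6 nerve and glia markers (Gfap, lower), and for 4.22% of all probes. After median scaling the differences of Pln and Gfap turned to 0.19 and 0.046, so no direction can be given for these markers. Tnni3, Sparc and Lyc2 kept their signs. The limma adjusted p of these markers was at least 0.371. The groups overlapped for all measured smooth muscle and pericyte, macrophage and lymphocyte markers. Of the markers of other cell types, those of endothelial, erythroid and platelet cells and of adipocytes were not analysed here.

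The members fell into a clear and a dim pair by their distance from the lowest level. Nr4a2 was 14, 31 and 14 steps clear of it on CPB replicates 1, 2 and 3, and 9, 18 and 13 steps on the sham replicates. Crem was 5, 50 and 4 steps clear of it on the CPB replicates and 10, 12 and 5 on the sham replicates. Both were thus measured on all 6 arrays, and in each gene CPB replicate 2, the array with the finest steps, gave the highest step count. Egr4 stood 1, 4 and 1 steps above that level on the CPB replicates and 1, 3 and 0 on the sham replicates. Nr4a3 stood 1, 2 and 0 steps above it on the CPB replicates and 0, 1 and 1 on the sham replicates. Egr4 was therefore measured on 5 arrays and Nr4a3 on 4, never by more than 4 steps. A probe's brightness depends on its sequence and labelling as well as on its transcript, so these distances say how well each probe was measured and do not rank the transcripts.

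**Figure D2:**
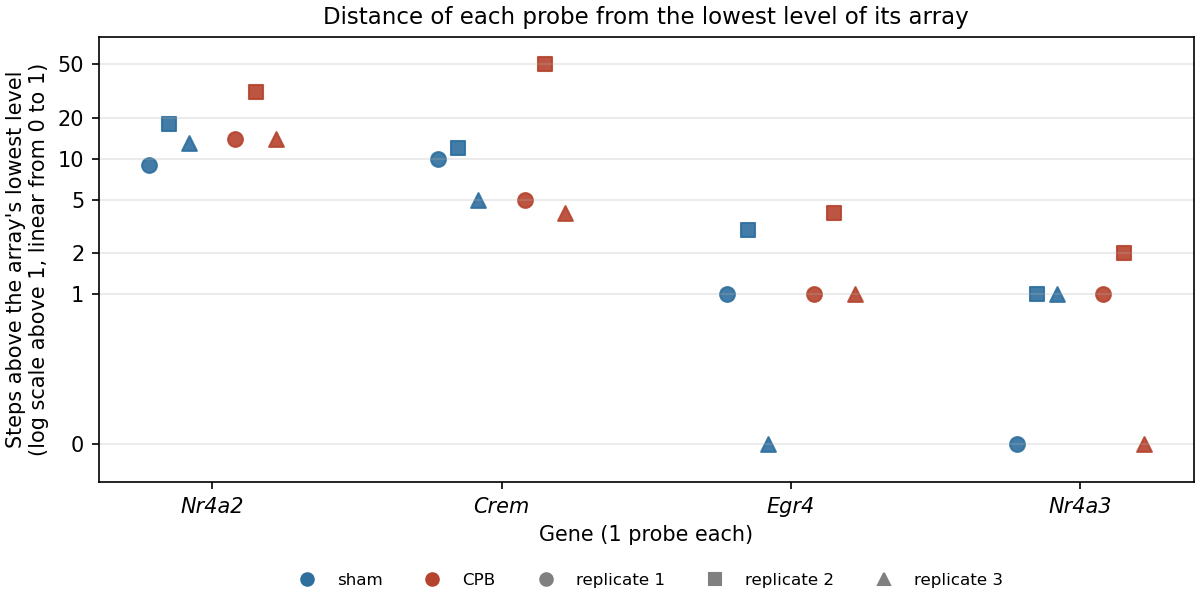
Steps above the lowest level of the array (vertical axis, logarithmic above 1 step and linear below) for the 4 probes in each of the 6 hearts, with colour for the group and symbol shape for the replicate number. Nr4a2 and Crem stand at 4 to 50 steps, and Egr4 and Nr4a3 at 0 to 4.

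Nr4a2 showed no difference between CPB and sham hearts beyond the spread of the replicates, and after quantile normalization its order over the replicate numbers was the same in both groups. Its normalized log2 intensity was 11.54, 11.33 and 12.25 in CPB replicates 1, 2 and 3, and 11.70, 11.31 and 12.40 in the sham replicates. The groups overlapped throughout: the arrays numbered 3 were the highest and those numbered 2 the lowest in both. The arrays numbered 3 are also those with most probes at the lowest level, whose part in this order was not tested. The mean was 11.71 ± 0.48 after CPB against 11.80 ± 0.55 after sham operation (SD, n = 3 each). CPB minus sham came to -0.09 (SE 0.35; limma adjusted p = 0.999), which is a fold of 0.938 with a 95% interval from 0.563 to 1.56. The interval therefore leaves room for a moderate change in either direction.

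Set against the sham heart of the same number, Nr4a2 differed by -0.16, 0.02 and -0.14 for numbers 1, 2 and 3, while the 6 hearts spanned 1.08. The largest of these, 0.16 in size, was smaller than in all but 1.81% of the 498 probes measured on every array. The closeness depended on the scaling. In the values as deposited the largest same-number difference was 0.18 (percentile 4.02), and with each array scaled to a common median it was 0.86 (percentile 45.0), for number 1. After median scaling the values were 12.26, 11.71 and 11.82 in CPB replicates 1, 2 and 3 and 11.40, 11.51 and 11.79 in the sham replicates. The shared order was then gone, and the same-number differences were all positive (0.86, 0.21 and 0.024). Within its array Nr4a2 outranked 89.6% to 95.1% of probes, ties included: 91.5%, 89.6% and 94.3% in CPB replicates 1 to 3 and 92.3%, 89.6% and 95.1% in sham replicates 1 to 3. The mean percentile was 91.8 ± 2.4 after CPB against 92.3 ± 2.7 after sham operation, with SD and n = 3 each (exact two-sided permutation p = 0.80, where 0.1 is the smallest possible).

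Median scaling turned the sign of the Nr4a2 difference to 0.36 (95% interval -0.63 to 1.36, limma adjusted p = 0.934), and leaving out single arrays moved it from -0.36 without CPB replicate 3 to 0.21 without sham replicate 3. No direction can be given for Nr4a2.

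**Figure D3:**
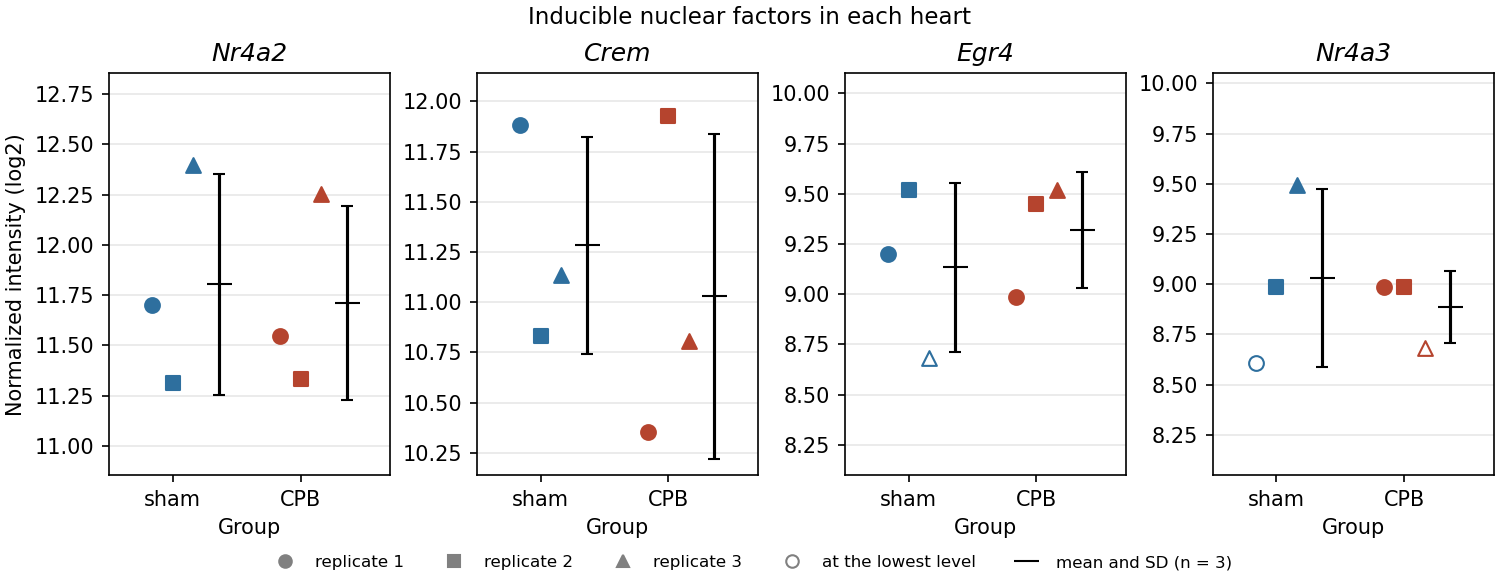
Normalized log2 intensity of the 4 probes in each heart, with symbol shape for the replicate number, open symbols at the lowest level of the array, and the mean and SD of each group of 3. Each panel spans 2 log2 units and has its own position, so panels show spread and not relative level; Nr4a2 is highest on the arrays numbered 3 in both groups, and Crem is highest on CPB replicate 2 and sham replicate 1.

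Crem varied widely between hearts, and its groups did not differ beyond that spread. Its normalized log2 intensity was 10.35, 11.93 and 10.81 in CPB replicates 1, 2 and 3, and 11.88, 10.83 and 11.13 in the sham replicates. CPB hearts held both the highest and the lowest value, so the sham values lay inside the CPB range. The mean was 11.03 ± 0.81 after CPB against 11.28 ± 0.54 after sham operation (SD, n = 3 each). CPB minus sham came to -0.25 (SE 0.40; limma adjusted p = 0.997), a fold of 0.838 with a 95% interval from 0.463 to 1.52. The limma fit draws the variance of each probe toward the trend of all probes. For Crem, and also for Nr4a2, the SE and interval are therefore narrower than the gene's own spread alone would give.

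The spread of Crem within groups was wide for this array. Its residual SD of 0.69 log2 was at the 93.6th percentile of the 498 probes measured on all arrays, whose median was 0.36, and that of Nr4a2 (0.52) at the 80.9th. Same-number hearts differed in Crem by -1.53, 1.09 and -0.33, so numbers 1 and 2 went opposite ways by more than 1 log2 unit each. As deposited these differences were -1.65, 1.29 and -0.37, and after median scaling -0.61, 1.34 and -0.29, with the same signs. One step is worth 0.03 to 0.23 log2 at the level of Crem, less than the gaps for numbers 1 and 2. Within its array Crem ranked at 79.5%, 93.2% and 85.7% in CPB replicates 1 to 3 and at 93.2%, 84.5% and 88.4% in sham replicates 1 to 3, with mean percentiles of 86.1 ± 6.9 (SD, n = 3) and 88.7 ± 4.4 (SD, n = 3) (exact two-sided permutation p = 0.70). The mean difference was 0.15 after median scaling, -0.69 without CPB replicate 2, 0.08 without CPB replicate 1 and 0.06 without sham replicate 1, so its sign also rests on the scaling and on single hearts.

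The dim pair gave values near the limit of the arrays. Egr4 had normalized log2 intensities of 8.99, 9.45 and 9.52 in CPB replicates 1, 2 and 3, and 9.20, 9.52 and 8.68 in the sham replicates, the last of these at the lowest level. CPB and sham values overlapped. The lowest value was the unmeasured one. CPB replicates 1 and 3 and sham replicate 1 were measured by 1 step each, so the highest CPB value also rests on 1 step. The means were 9.32 ± 0.29 and 9.13 ± 0.42 (SD, n = 3 each), so CPB minus sham was 0.19 (SE 0.35, 95% interval -0.55 to 0.92; limma adjusted p = 0.999). It was -0.18 in the values as deposited, and 0.02 without sham replicate 3.

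Nr4a3 stood at 8.99, 8.99 and 8.68 in CPB replicates 1, 2 and 3, and at 8.61, 8.99 and 9.49 in the sham replicates. CPB replicate 3 and sham replicate 1 were at the lowest level, and 3 of the remaining values were equal after normalization. The highest value, that of sham replicate 3, was measured by 1 step. The means were 8.89 ± 0.18 and 9.03 ± 0.44 (SD, n = 3 each), so CPB minus sham was -0.14 (SE 0.26, 95% interval -0.71 to 0.42; limma adjusted p = 0.999). It was 0.08 after median scaling. One step is worth 0.18 to 0.72 log2 at the values of Egr4 and 0.25 to 0.78 at those of Nr4a3, so a change of that size could pass as 1 step or none. A value at the lowest level is an upper bound, and the intervals of both genes treat it as measured.

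None of the 4 members passed an adjusted p of 0.05, and neither did any other probe: the limma fit called 0 of 1185 (0%). At an unadjusted p under 0.05 it held 35 probes (2.95%), 0 of them members. The groups did not overlap for 50 probes (4.22%), and for 0 of the 4 members.

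**Figure D4:**
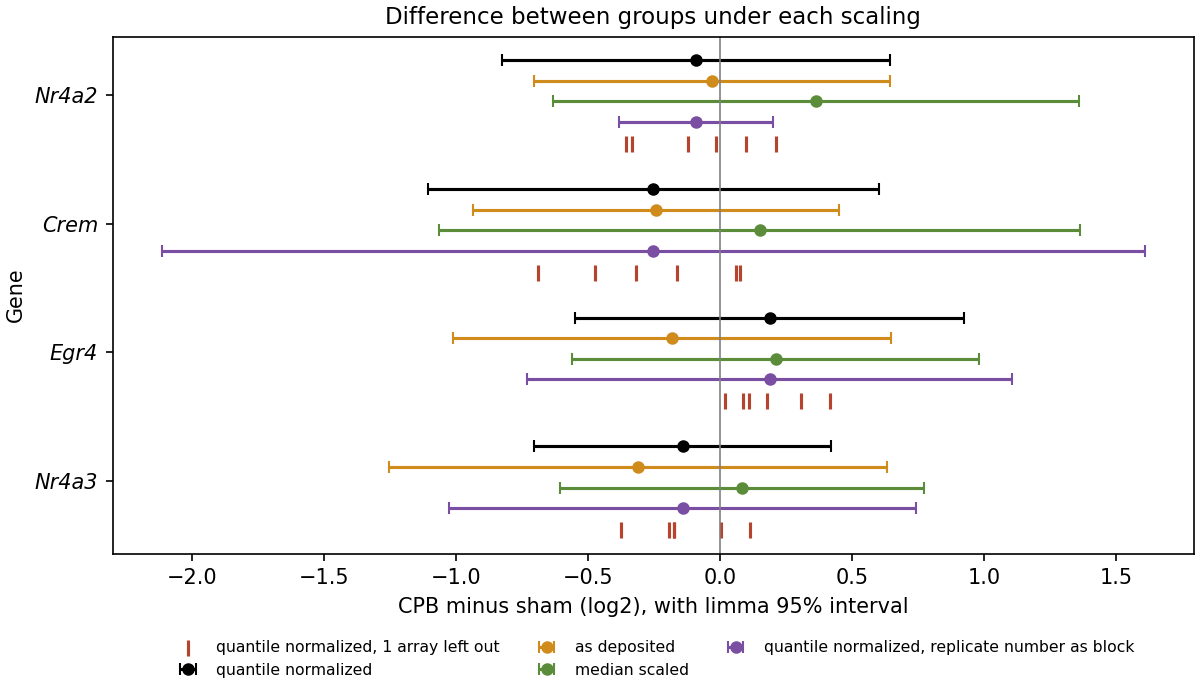
CPB minus sham on the log2 scale for each gene, with limma 95% intervals, after quantile normalization, as deposited, after median scaling and with the replicate number as a block; red ticks are the differences with 1 array left out. Every interval spans 0, and for each gene at least 1 scaling lies on the other side of 0.

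The clear and the dim members were also set against each other, as differences within each array. On the log scale these cancel a factor that multiplies all values of an array, but no other difference between arrays. Nr4a2 minus Nr4a3 was 0.05 higher after CPB (2.82 ± 0.66 against 2.77 ± 0.40, SD, n = 3 each; exact two-sided permutation p = 0.90). As deposited and after median scaling it was 0.28 higher, and 0.32 with a common floor (exact permutation p = 0.20 for each). Nr4a2 minus Crem was 0.16 higher (0.68 ± 1.11 against 0.52 ± 0.72, SD, n = 3 each; exact permutation p = 0.90). Crem minus Egr4 had a CPB minus sham value of -0.44 (1.71 ± 0.66 against 2.15 ± 0.73, SD, n = 3 each; exact permutation p = 0.50), and of -0.061 as deposited and after median scaling. Where Egr4 or Nr4a3 was at the lowest level, the difference on that array is a bound treated as a value. All 6 pairs were compared, their groups overlapped in every case, and the adjusted p was 0.90 for each after quantile normalization. The test cannot go below 0.1, so it does not show that the members acted alike.

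Across the 6 hearts, correlations between the members depended on the scaling. Pearson's r of normalized values was -0.16 between Nr4a2 and Crem, 0.26 between Nr4a2 and Nr4a3, and 0.15 between Crem and Egr4. It was -0.67 between Nr4a3 and Egr4, -0.48 between Nr4a2 and Egr4, and -0.18 between Nr4a3 and Crem. In the values as deposited the 6 coefficients were, in the same order, -0.028, 0.85, 0.46, 0.20, 0.34 and 0.15. The 6 points share their arrays and normalization, and array brightness is common to all genes as deposited.

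Among the other 468 named probes measured on all arrays, the values most like those of Nr4a2 belonged to Eef1a1, a translation elongation factor (r = 0.99 over 6 arrays), Cyp27b1, the vitamin D 1-alpha-hydroxylase (r = 0.99), and Snrpn, a protein of the splicing machinery (r = 0.98). After median scaling these correlations were 0.92, 0.47 and 0.68. The values most like those of Crem belonged to Nup50, a nuclear pore protein (r = 0.92), Zranb2, a splicing factor (r = 0.91), and Ybx1, a DNA- and RNA-binding protein (r = 0.89), and were 0.72, 0.89 and 0.73 after median scaling. None of these 6 genes passed the threshold: their differences ran from -0.21 for Ybx1 to 0.04 for Zranb2 (limma adjusted p of at least 0.974). They were picked as the highest of 468 correlations over 6 points.

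The rest of the pathway was thinly covered by the array. Of 22 CREB, CREM and ATF factors and coactivators, Crem alone was measured. Of 3 NR4A receptors, Nr4a2 and Nr4a3 were measured, and Nr4a1 was not analysed here. Of 6 EGR factors and their NAB partners, 3 had a probe. Nab1, a corepressor that binds EGR proteins, lay 1 to 14 steps above the lowest level and differed by -0.13 (SE 0.40). Egr2 was above the lowest level only on sham replicate 1, by 1 step, so no fold is given. Across all lists named in this paragraph and the next, 0 members passed the threshold in either direction (limma adjusted p of at least 0.909), and 0 had groups that did not overlap.

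Of 55 genes that make, sense or break down cAMP, 5 had a probe, with 2 higher and 3 lower and a median of -0.12 against -0.03 over all probes. Akap1, which anchors protein kinase A at mitochondria, was the only one measured on all arrays, with 10.76 ± 0.25 after CPB against 10.54 ± 0.52 after sham operation (SD, n = 3 each), which is 0.23 (SE 0.34) higher. The anchoring protein Akap5 did not rise above the lowest level in any CPB heart and was 1 step above it on sham replicates 2 and 3, so no fold is given. The phosphodiesterases Pde1c, Pde2a and Pde7a were above the lowest level on 3, 2 and 2 arrays, by at most 2 steps. The median of -0.12 is the value of Pde7a, so it and the direction counts rest mostly on probes near that level. Of 53 other immediate-early or cAMP-inducible genes, 7 had a probe, 3 higher, 3 lower and 1 equal. The equal one, the neurotrophin gene Bdnf, was at the lowest level on all 6 arrays, so it has no measured level, and the list median of 0.00 is its value. Among the 5 brightest, Dusp6, a phosphatase of ERK, differed by 0.39 (SE 0.36), and Bhlhe40, a clock-linked repressor, by 0.31 (SE 0.36). Dusp1, which inactivates MAP kinases, stood at -0.71 (SE 0.40), the clock gene Per2 at -0.37 (SE 0.35), and Odc1, which starts polyamine synthesis, at 0.04 (SE 0.39). All 5 had arrays near the lowest level. Dusp1 was 1, 10 and 1 steps above it on the CPB replicates and 2, 6 and 4 on the sham replicates. Per2 and Odc1 were at the lowest level on CPB replicate 3, and otherwise 1 to 4 and 1 to 8 steps above it. Dusp6 and Bhlhe40 stood 2 to 12 and 1 to 11 steps above it. In the order given, the signs of these 5 held after median scaling (0.57, 0.53, -0.50, -0.19 and 0.30), and Odc1 was -0.09 as deposited. The list median was -0.49 as deposited and -0.09 after median scaling, while the median over all probes was -0.29 and 0.11.

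**Figure D5:**
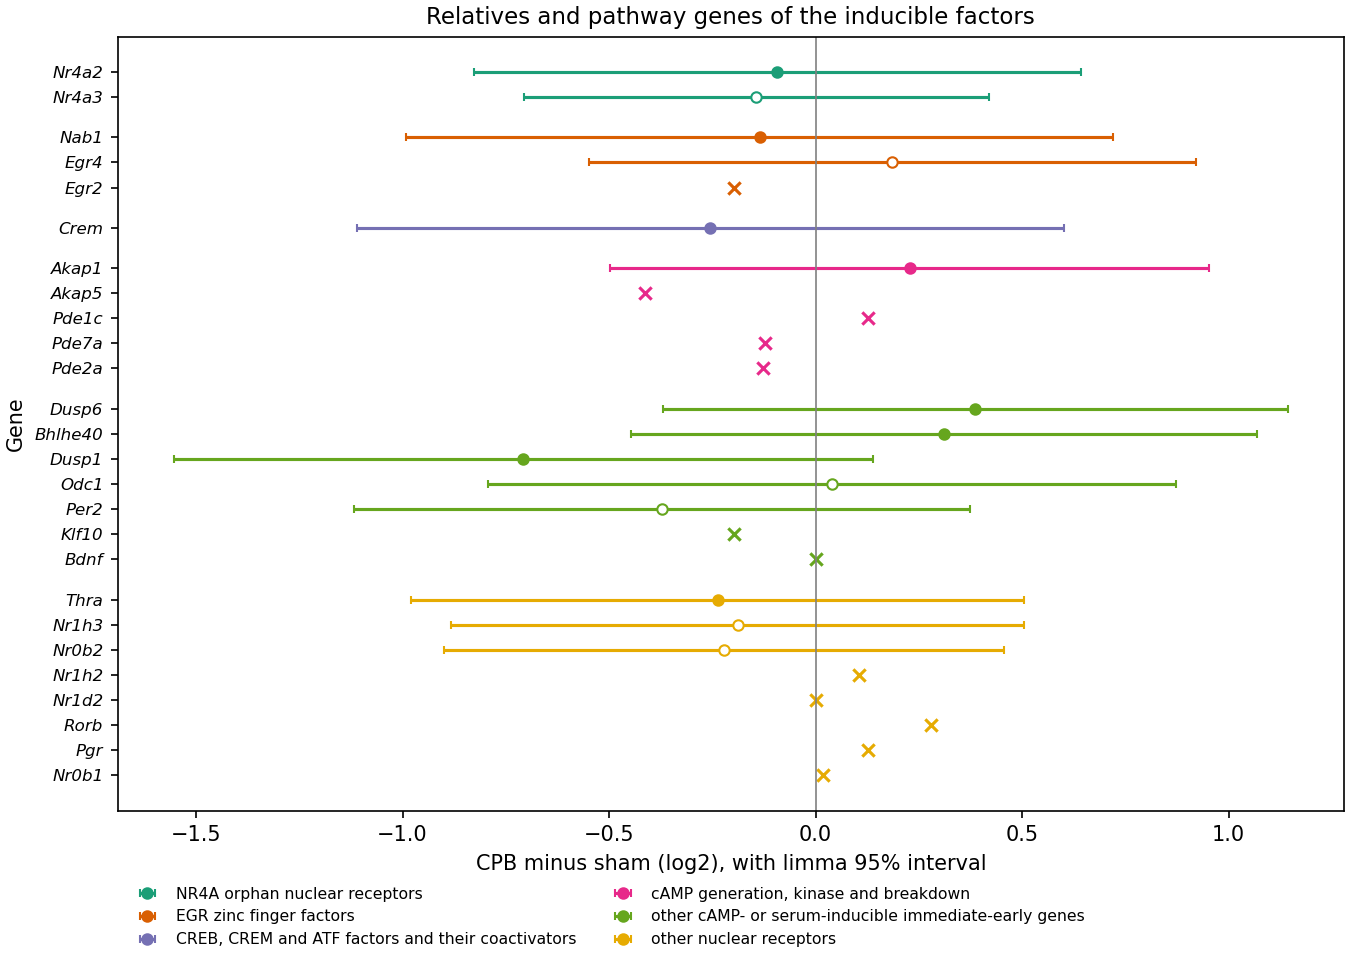
CPB minus sham on the log2 scale for the measured relatives and pathway genes, with limma 95% intervals, coloured by list. Filled points were above the lowest level on all 6 arrays, open points on 4 or 5, and crosses, drawn without an interval, on 3 or fewer; every interval drawn spans 0.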

How the data were processed

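Total RNA of 3 CPB and 3 sham rat hearts was measured on 1 array each, and groups and replicate numbers came from the titles. No label states a unit. The numbers the authors deposited fit a natural log scale, judged from their range and spacing, and how the authors corrected background or normalized is not known here. Within each array, 2 times the hyperbolic sine of the values fell on an even grid above a lowest level, which gives the steps.

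Linear values were quantile normalized (ties averaged), converted to log2 with no pseudocount, and tested over all 1185 probes in limma 3.58.1 under R 4.3.3 (lmFit, then eBayes with a trended variance; two-sided tests, Benjamini-Hochberg adjustment). With 3 arrays a group, their number limits the precision. The fit was tested on simulated data.

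Symbols came from the platform annotation: 1113 probes carried 1 symbol, of which 1106 were found by gene identifier in the RefSeq table (GRCr8), 2 carried several and 70 none. Named genes were the members, up to 5 per list by highest mean value, and the 3 probes most correlated with each member measured on all arrays. The members and lists were chosen with earlier results of these data known.

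Deviations from group means correlated at 0.240, 0.277 and 0.296 for arrays numbered 1, 2 and 3. As deposited they correlated at 0.0584, 0.300 and 0.442. Arrays of unlike number were not compared, and no label names a shared litter, day or batch. Whether the numbers pair the hearts was therefore not tested. P-values set each group difference against the spread between these 6 samples. In limma that spread is drawn toward the trend of all probes. Alternatives were other scalings, a pseudocount at the 25th percentile, a common floor, filters on low values, no variance trend, the number as a block, and each array left out with the others normalized again.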

Additional observations from a re-analysis of the deposited data

How the results depend on the processing

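No alternative brought a member past the threshold (limma adjusted p from 0.755 to 1.00), but signs turned often. Median scaling gave 0.36 for Nr4a2, 0.082 for Nr4a3 and 0.15 for Crem, and with a common floor as well 0.36, 0.044 and 0.15. The values as deposited gave -0.18 for Egr4. With 1 array left out, the difference ran from -0.36 to 0.21 for Nr4a2, from -0.38 to 0.11 for Nr4a3, from -0.69 to 0.076 for Crem and from 0.02 to 0.42 for Egr4. Of the pairs, Nr4a2 minus Egr4 turned to 0.15 as deposited and after median scaling and to 0.17 with the common floor, and Nr4a3 minus Crem to -0.067, -0.067 and -0.11. Nr4a2 minus Nr4a3 grew to 0.28, 0.28 and 0.32, and Crem minus Egr4 shrank to -0.061, -0.061 and -0.043. Left-out arrays moved Nr4a2 minus Nr4a3 from -0.36 to 0.29, Nr4a2 minus Crem from -0.19 to 0.79, Nr4a2 minus Egr4 from -0.75 to 0.19, Nr4a3 minus Crem from -0.44 to 0.50, Nr4a3 minus Egr4 from -0.59 to 0.094 and Crem minus Egr4 from -0.89 to -0.11. The cause of the turns was not tested.

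Over all probes, 1 passed (Sparc) in the values as deposited and among probes above the lowest level on at least 3 arrays, and 0 to 1 with an array left out (1, also Sparc, without CPB replicate 1). At an unadjusted p under 0.05 there were 20 after median scaling, 51 without a variance trend, 22 of the probes above the lowest level on all 6 arrays, and 21 to 72 with an array left out. With the replicate number as a block, the differences were the same and no call changed: the limma adjusted p was 0.755 for Nr4a2 (95% interval -0.38 to 0.20), 0.893 for Crem (-2.12 to 1.61), 0.830 for Egr4 and 0.875 for Nr4a3. Egr4 and Nr4a3 gave no value under the filter for all 6 arrays. Signal over the lowest level limits both, at 0 to 4 steps.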

Other observations

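Other nuclear receptors on the array also lay close to the lowest level. Of 44 listed, 8 had a probe, and 0 of the 8 passed the threshold (limma adjusted p of at least 0.909). Thra, a thyroid hormone receptor, was the only one above the lowest level on all 6 arrays, by 3, 3 and 1 steps in CPB replicates 1, 2 and 3 and 2, 6 and 1 in the sham replicates. It was at 9.54 ± 0.20 after CPB against 9.78 ± 0.30 after sham operation (SD, n = 3 each), so CPB minus sham was -0.24 (SE 0.35). The oxysterol receptor Nr1h3 was measured on 5 arrays, and the corepressor-like receptor Nr0b2 on 4. The oxysterol receptor Nr1h2 and the heme-binding clock repressor Nr1d2 were measured on 3 arrays each.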
